A study of Anser cygnoides with 12 samples.

Results

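Libraries rich in transcripts of absorptive epithelium were set beside libraries poor in them, among 12 ileum libraries of Yangzhou geese, a domestic goose breed (Anser cygnoides in the labels). Each library was scored by the mean of log2(FPKM + 1) of SLC15A1, ANPEP, APOB, MTTP and VIL1, 5 genes of the absorptive enterocyte. The 6 libraries with the highest scores of the 12 are called rich and the other 6 poor. FPKM is the deposited expression value, a read count scaled to transcript length and library size. The libraries were thus selected on measured FPKM of these 5 genes. The differences between the sides are therefore a description, and no test of rich against poor was made. The 5 score genes are left out of the counts of genes and list members that differ between the sides. They remain among the genes fitted between diets and among the named genes checked in the closing section.

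The libraries came from 3 diets with 4 libraries each, numbered here as in the labels. Lactulose geese ate a 21% crude protein diet with 0.3% lactulose, a synthetic disaccharide that vertebrate enzymes do not split and that gut bacteria ferment. High protein geese ate the 21% diet alone, and control geese a basal diet with 18% crude protein. All birds are thus of 1 breed and 1 gut segment, and nothing in the labels gives their age or sex, says that replicates are separate birds, or says how the ileum was cut or whether muscle was removed. Poly(A) RNA was sequenced. The rich side held lactulose 5 and 3, high protein 1, and control 7, 3 and 4. The poor side held high protein 5 and 4, lactulose 6, control 6, high protein 3 and lactulose 2.

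The small intestine is lined by a single cell layer that is renewed from the crypts. Most of the cells on the villi are absorptive enterocytes, whose apical membrane is folded into a brush border of microvilli. Enzymes anchored there finish the digestion of peptides and sugars, transporters beside them take up the products, and enterocytes pack dietary lipid into lipoproteins. In the ileum they also recover bile acids. Beneath the epithelium lie the lamina propria with its fibroblasts, vessels and immune cells, and the muscle layers with their enteric neurons, so that a piece of gut wall gives RNA of all of them. In such bulk samples fewer cells of a type and less RNA per cell cannot be told apart. Roles given below are those known from mammals.

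Total counts ranged from 41874570 to 48251825 in the rich libraries and from 38706155 to 43898114 in the poor ones. Control 3 stood apart from the other 11. Of its counts 14.2% were in cytosolic ribosomal protein genes, a share of 4.23 to 11.3% in the other libraries, and its median Pearson correlation of log2(FPKM + 1) with the other libraries was 0.915, against 0.947 to 0.964 for the other libraries. Lactulose 3 and 5 resembled each other more than any of the other 17 same-diet pairs. Their counts had a chi-square of 10.5 per degree of freedom over 13405 genes, against 113 to 592 in those pairs. LOC125181535, a gene picked after its values were seen, was high in some libraries of both sides and near 0 in others. It had 0.186 FPKM in lactulose 5 and 2.55 in lactulose 3, both far under the 26.0 FPKM of high protein 1. A single gene picked in this way cannot decide whether the pair comes from 1 bird. Both libraries were kept. The labels do not say whether they come from 1 bird; if they do, the n of 6 per side and of 4 per diet count that bird as 2 replicates. Values without control 3 stand beside the results they change, and counts with lactulose 3 and 5 averaged are given with the other settings in the closing section.

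The score was highest in lactulose 5 at 7.78, and was 7.69 in lactulose 3, 7.64 in high protein 1, 7.57 in control 7, 6.98 in control 3 and 6.94 in control 4. On the poor side it was 6.78 in high protein 5, 6.77 in high protein 4, 6.26 in lactulose 6, 5.66 in control 6, 5.61 in high protein 3 and 5.61 in lactulose 2. The gap at the border, between control 4 and high protein 5, was 0.16. It was smaller than the 3 widest gaps, of 0.60 between lactulose 6 and control 6, 0.58 between control 7 and control 3, and 0.51 between high protein 4 and lactulose 6. The 4 libraries nearest the border, 2 on each side, thus had scores from 6.77 to 6.98. Each diet's mean score lay within 1 SD of the others: the score averaged 6.83 ± 1.07 in lactulose, 6.70 ± 0.83 in high protein and 6.79 ± 0.81 in control libraries (SD, n = 4 each).

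The 5 score genes are given as what chose the libraries. SLC15A1, the brush border peptide transporter PEPT1, had 373 to 641 FPKM (median 489) in the rich libraries, against 64.4 to 399.5 FPKM (median 156) in the poor libraries. ANPEP, aminopeptidase N, had 597 to 1369 FPKM (median 1094) in the rich libraries, against 311 to 611 FPKM (median 403) in the poor libraries. For VIL1, the microvillus actin bundler villin, the values were 142 to 269 FPKM in the rich and 76.8 to 146 FPKM in the poor libraries. APOB, the structural protein of the lipoproteins that carry absorbed lipid, had 10.1 to 26.9 FPKM in the rich and 1.58 to 13.8 FPKM in the poor libraries, and MTTP, which loads lipid onto it, 46.6 to 104 FPKM in the rich and 21.7 to 53.4 FPKM in the poor libraries. In each of the 5 genes the lowest rich library lay under the highest poor one in FPKM, so that no single one of them gives the split; on TMM-scaled counts, described next, MTTP and VIL1 did not overlap. The VIL1 gene model begins at position 66 of its scaffold and may be cut short. Just inside the border, control 4 had 373 FPKM of SLC15A1 and 11.6 FPKM of APOB, and just outside it high protein 5 had 262 and 13.8 FPKM.

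**Figure D1:**
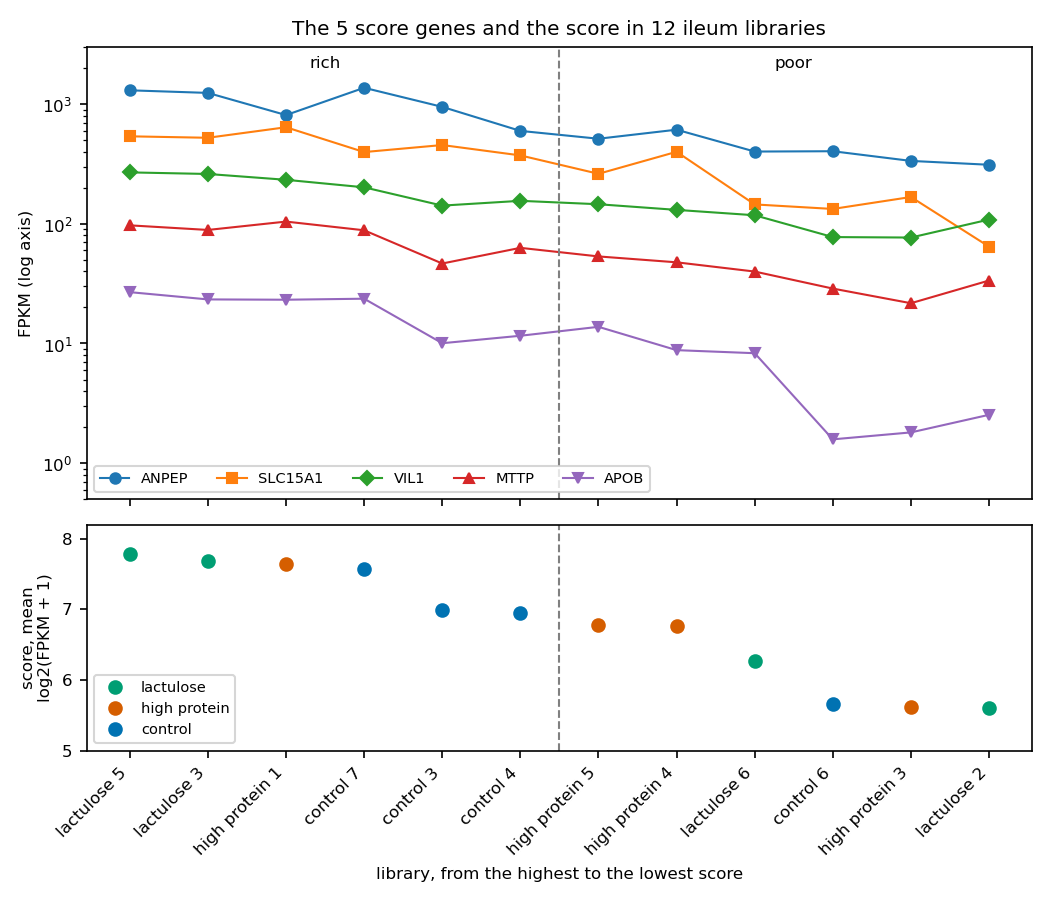
FPKM of the 5 score genes on a log axis (top) and the score, the mean log2(FPKM + 1) of the 5 (bottom), in the 12 libraries ordered from the highest score to the lowest. The dashed line marks the border between 6 rich and 6 poor libraries. The score runs from 7.78 in lactulose 5 to 5.61 in lactulose 2, with a gap of 0.16 at the border, and each diet appears on both sides.

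Among 11986 genes with a mean of at least 1 FPKM over the 12 libraries, 108 were higher in each of the 6 rich libraries than in any poor one, which is 0.901% of them, and 153 were lower, which is 1.28%. On counts scaled by the TMM method of edgeR, which corrects for differences in RNA composition, the counts were 226 (1.89%) higher and 130 (1.08%) lower, so that 41.4% of non-overlapping genes were higher on the FPKM scale and 63.5% on the TMM scale. Both scales shared 73 higher and 70 lower genes. The difference of a gene is the mean log2(FPKM + 1) of the rich libraries minus that of the poor ones. Its median over all 11986 genes was -0.10 in FPKM and 0.01 after TMM scaling, a shift of 0.11, and differences below are to be read against the median of -0.10. With a negative median, more genes had a negative than a positive difference in FPKM. That also raises the counts of negative list members below. Without control 3, 361 genes (3.01%) were higher and 289 (2.41%) lower. The split used this contrast, so that nothing about single genes is read from these shares. Counts of non-overlapping list members below are to be set beside these shares. An absence of such members is not read as a trait of a list.

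Digestive enzymes of the brush border had the widest difference of the 38 gene lists described here. Of 14 list members past the filter, 13 had a positive difference and 6 did not overlap, with a list median of 1.30 (1.499 after TMM scaling, 1.48 without control 3). ENPEP, glutamyl aminopeptidase, had 230.5 to 578 FPKM (median 366) in the rich libraries, against 28.6 to 199 FPKM (median 115) in the poor libraries, a difference of 2.05. It lies at positions 3656873 to 3691514 on the plus strand of scaffold NW_025927698.1 in the deposited table (gene ID 106038675). For MEP1A, the alpha subunit of the metalloprotease meprin, the values were 409 to 956 FPKM (median 505) in the rich libraries, against 77.8 to 389.6 FPKM (median 185) in the poor libraries (difference 1.68). Sucrase-isomaltase, SI, averaged 248 ± 93.6 FPKM in the rich and 108 ± 32.4 FPKM in the poor libraries (SD, n = 6 each). DPP4, dipeptidyl peptidase 4, had 64.96 to 82.9 FPKM in the rich and 34.7 to 59.5 FPKM in the poor libraries, and CDHR2, a protocadherin that links neighbouring microvilli, 43.9 to 92.8 FPKM in the rich and 16.1 to 38.7 FPKM in the poor libraries. On the TMM scale DPP4 overlapped. CDHR2, which is among the non-overlapping members, and CDHR5 stand in this list but are not enzymes. They had differences of 1.21 and 0.96. The 2 lactulose libraries of the rich side were the highest of the 12 for ENPEP, MEP1A and SI, and high protein 5 and 4 were the highest poor libraries for ENPEP and MEP1A. Enteropeptidase, TMPRSS15, which activates trypsinogen, was the member without a positive difference, at 0 to 2.60 FPKM in the rich and 0.0303 to 3.48 FPKM in the poor libraries. After TMM scaling its difference was positive as well.

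Genes that build the microvillus were higher as a group but by less. In all 17 members past the filter the difference was positive, with a median of 0.51, and 2 did not overlap (7 without control 3). PDZK1, a scaffold that holds transporters in the apical membrane, had 129.9 to 263 FPKM (median 181) in the rich libraries, against 51.8 to 108 FPKM (median 81.4) in the poor libraries (difference 1.24). PLS1, the actin bundler plastin 1, had 95.6 to 183 FPKM (median 129) in the rich libraries, against 33.9 to 93.99 FPKM (median 51.6) in the poor libraries (difference 1.12). Overlap was present in ezrin, EZR (129 to 233 FPKM in the rich and 84.8 to 146 FPKM in the poor libraries), and in the motor MYO1A (80.00 to 191 FPKM in the rich and 48.6 to 87.6 FPKM in the poor libraries). On the TMM scale PLS1 overlapped and MYO1A did not. In control 3 EZR and MYO1A were the lowest of the rich side, at 129 and 80.00 FPKM.

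Uptake genes were higher too, and the size differed with the substrate. All 14 sugar and vitamin transport and handling genes past the filter had a positive difference, with a median of 0.99, and 1 did not overlap. That gene, KHK, the first enzyme of fructose use, had 66.2 to 124 FPKM (median 95.3) in the rich libraries, against 29.3 to 59.7 FPKM (median 41.8) in the poor libraries (difference 1.17). SLC5A1, the sodium-glucose cotransporter SGLT1, averaged 87.9 ± 35.4 FPKM in the rich and 28.8 ± 18.4 FPKM in the poor libraries (SD, n = 6 each), with a difference of 1.73. SLC2A2, the basolateral hexose carrier GLUT2, showed 2.37 to 76.3 FPKM (median 20.02) in the rich libraries, against 0.238 to 12.2 FPKM (median 1.64) in the poor libraries. It was high in lactulose 5, lactulose 3 and high protein 1 (76.3, 70.8 and 33.9 FPKM) and low in the rich control libraries 7, 3 and 4 (2.37, 3.44 and 6.17 FPKM). The vitamin B12 receptor subunit CUBN showed that pattern as well, with 7.52, 6.96 and 6.46 FPKM in the first 3 libraries and 0.901, 0.108 and 0.345 FPKM in those control libraries, while its partner AMN had 10.3 to 18.7 FPKM in the rich and 4.54 to 10.4 FPKM in the poor libraries.

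Among 11 amino acid transporters past the filter 0 did not overlap, near the 0.901% of all genes that were higher without overlap. The median difference was 0.23 and 8 were positive. Leaving out 1 library moved that median from 0.20 without high protein 4 up to 0.42 without high protein 1 and 0.46 without control 6. SLC1A1, a carrier of glutamate and aspartate, averaged 268 ± 175 FPKM in the rich and 92.3 ± 43.5 FPKM in the poor libraries (SD, n = 6 each; difference 1.42). Lactulose 5 and 3 stood far above the other 10 libraries in SLC1A1, at 517 and 466.3 FPKM. The cystine carrier subunit SLC7A9 had 7.28 FPKM in high protein 1, under the 46.97 to 80.2 FPKM of the other rich libraries and under the 15.7 to 49.8 FPKM of the poor ones. Carriers of other substrates were among the 12 widest non-overlapping differences. SLC13A2, a sodium-coupled carrier of citrate and succinate, had 204 to 366 FPKM (median 301) in the rich libraries, against 36.4 to 168 FPKM (median 81.97) in the poor libraries (difference 1.80). SLC22A4, a carrier of ergothioneine, had 15.1 to 46.3 FPKM in the rich and 6.23 to 11.7 FPKM in the poor libraries. The zinc importer SLC39A4 had 1.33 to 4.49 FPKM in the rich and 0.144 to 0.891 FPKM in the poor libraries; its gene model begins at position 165 of its scaffold and may be cut short. In control 4, the rich library next to the border, SLC13A2 and SLC22A4 were at 209 and 15.1 FPKM, at or near the lowest of the rich side.

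Among the other genes with the widest non-overlapping differences, ENPP3, an ectoenzyme that cleaves extracellular nucleotides, had 30.7 to 65.2 FPKM (median 50.6) in the rich libraries, against 8.30 to 28.5 FPKM (median 17.98) in the poor libraries (difference 1.41). GK, glycerol kinase, had 19.8 to 50.4 FPKM in the rich and 8.89 to 18.8 FPKM in the poor libraries (difference 1.34). On the TMM scale ENPP3 and GK overlapped. TMIGD1, an adhesion protein of the intestinal epithelium, had 302 to 460.0 FPKM (median 371) in the rich libraries, against 80.3 to 237 FPKM (median 142) in the poor libraries (difference 1.33), and PRR15, a proline-rich protein, 22.3 to 50.7 FPKM in the rich and 6.41 to 20.7 FPKM in the poor libraries (difference 1.44). In each of these 4 genes control 4 was the lowest rich library and high protein 5 or 4 the highest poor one, the libraries beside the border of the score.

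Of 31 electrolyte and water transport genes, 23 had a positive difference (median 0.53), 2 were higher without overlap and 1 was lower. SLC9A2, a sodium-proton exchanger, had 6.87 to 13.5 FPKM (median 11.1) in the rich libraries, against 1.49 to 5.80 FPKM (median 3.97) in the poor libraries, and the chloride channel CLCN2 had 8.18 to 10.3 FPKM (median 9.36) in the rich libraries, against 1.70 to 6.26 FPKM (median 4.45) in the poor libraries. The CLCN2 gene model begins at position 61 of its scaffold and may be cut short. The gene without overlap in the other direction was ATP1B3, a beta subunit of the sodium pump, at 38.3 to 46.9 FPKM in the rich and 48.7 to 67.4 FPKM in the poor libraries. On the TMM scale that gene overlapped, and 7 members were higher without overlap. ATP1B1, another beta subunit of the pump, had the opposite direction, at 233 to 641 FPKM in the rich and 164 to 289 FPKM in the poor libraries, and overlapped in FPKM but not on the TMM scale.

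**Figure D2:**
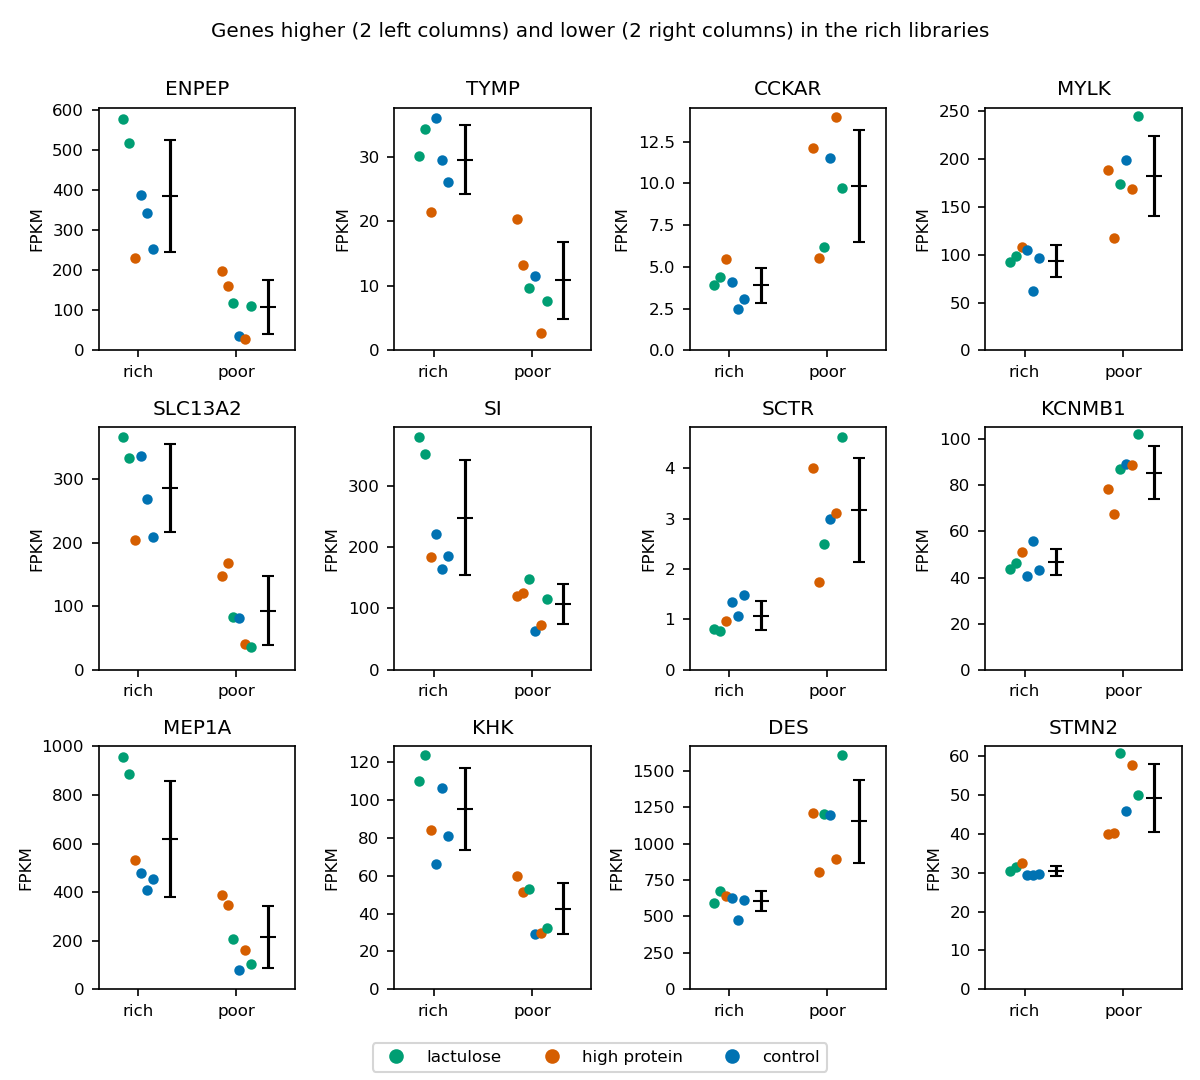
FPKM of 12 genes in the 6 rich (left of each panel) and 6 poor libraries (right), 1 point a library coloured by diet, with the mean and SD beside the points. ENPEP, SLC13A2, MEP1A, TYMP, SI and KHK do not overlap and are higher in the rich libraries, with ENPEP from 230.5 to 578 FPKM there. CCKAR, SCTR, DES, MYLK, KCNMB1 and STMN2 do not overlap and are lower, with DES from 474 to 676 FPKM in the rich libraries.

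Lipid absorption genes held some of the widest differences. Of the 19 members 0 were without overlap, near the 0.901% of all genes that were higher in this way, and the 0 is not read as a result. The list median was 0.66 (0.56 after TMM scaling, 0.53 without control 3) and 17 differences were positive. FABP1, the fatty acid binding protein of liver and gut, ranged over 398 to 1785 FPKM (median 841) in the rich libraries, against 29.1 to 459 FPKM (median 165) in the poor libraries, a difference of 2.24. Its highest value was in control 3, 1785 FPKM, and its lowest in lactulose 2, 29.1 FPKM. FABP2, the intestinal fatty acid binding protein, had 147 to 494 FPKM (median 337) in the rich libraries, against 25.2 to 255 FPKM (median 97.3) in the poor libraries (difference 1.52). APOA1, the main protein of high-density lipoprotein, had 231 to 1186 FPKM (median 843) in the rich libraries, against 40.1 to 452 FPKM (median 158) in the poor libraries (difference 2.17). APOA4, its neighbour on the same scaffold and a lipoprotein protein of enterocytes, reached 104.6 FPKM in the poor library high protein 5, above the 83.9 FPKM of the highest rich one. ABCG5 and ABCG8, which together return sterols to the lumen, differed by 1.21 and 1.84. ABCG8 was at 64.4 to 77.99 FPKM in lactulose 5, lactulose 3 and high protein 1, and at 19.3 to 24.6 FPKM in the 3 rich control libraries. CD36, a fatty acid receptor, had a difference of -0.09, and MOGAT2, which rebuilds glycerides from absorbed lipid, had 8.31 to 17.9 FPKM in the rich and 5.80 to 15.4 FPKM in the poor libraries.

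Genes of ileal bile acid recovery were higher on average. All 9 members past the filter had a positive difference, and the median was 0.90. Of them 0 did not overlap, near the 0.901% of all genes that were higher without overlap. SLC10A2, the apical bile acid transporter ASBT, had 19.6 to 146 FPKM (median 107) in the rich libraries, against 6.84 to 47.1 FPKM (median 30.2) in the poor libraries (difference 1.77). FABP6, the ileal bile acid binding protein, had 827 to 3490.5 FPKM (median 2936) in the rich libraries, against 621 to 2307 FPKM (median 1109) in the poor libraries. SLC51B, a subunit of the basolateral exporter, had 4.53 to 15.5 FPKM in the rich and 1.74 to 5.93 FPKM in the poor libraries, and the hormone FGF19, which bile acids induce, 0.124 to 5.95 FPKM in the rich and 0 to 1.68 FPKM in the poor libraries. High protein 1 broke the order: its SLC10A2, 19.6 FPKM, was the lowest of the rich side, while its FABP6, 3490.5 FPKM, was the highest of the 12. Control 7 had the opposite pattern, with 133 FPKM of SLC10A2 and 827 FPKM of FABP6. High protein 1 was also far above the other 11 libraries in RBP2, a retinol binding protein (45.3 against at most 5.18 FPKM), in the sterol importer NPC1L1 (7.72 against at most 1.53 FPKM), in the water channel AQP8 (70.1 against at most 3.55 FPKM) and in lactase, LCT (6.91 against at most 0.831 FPKM), genes picked after their values were seen. The list of genes of the upper small intestine had a median difference of -0.06 over 6 members, 3 of them positive (0.05 without high protein 1, -0.15 without control 4, 0.07 after TMM scaling). LCT and other members under the filter are not in that median. Of these the transcription factor GATA4 was at 4.07 FPKM in high protein 1, against at most 0.0765 FPKM elsewhere, and ONECUT2 at 0.864 FPKM, against at most 0.131 FPKM. High protein 1 is the one rich library of its diet. The non-overlapping member of the upper small intestine list, the iron exporter SLC40A1, had 8.71 to 17.4 FPKM in the rich and 17.9 to 32.3 FPKM in the poor libraries. The 2 widest differences of that list had the opposite direction, with overlap. The hormone secretin, SCT, had 8.57 to 53.3 FPKM in the rich and 4.02 to 13.1 FPKM in the poor libraries (difference 1.80). ADA, adenosine deaminase, differed by 0.91.

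**Figure D3:**
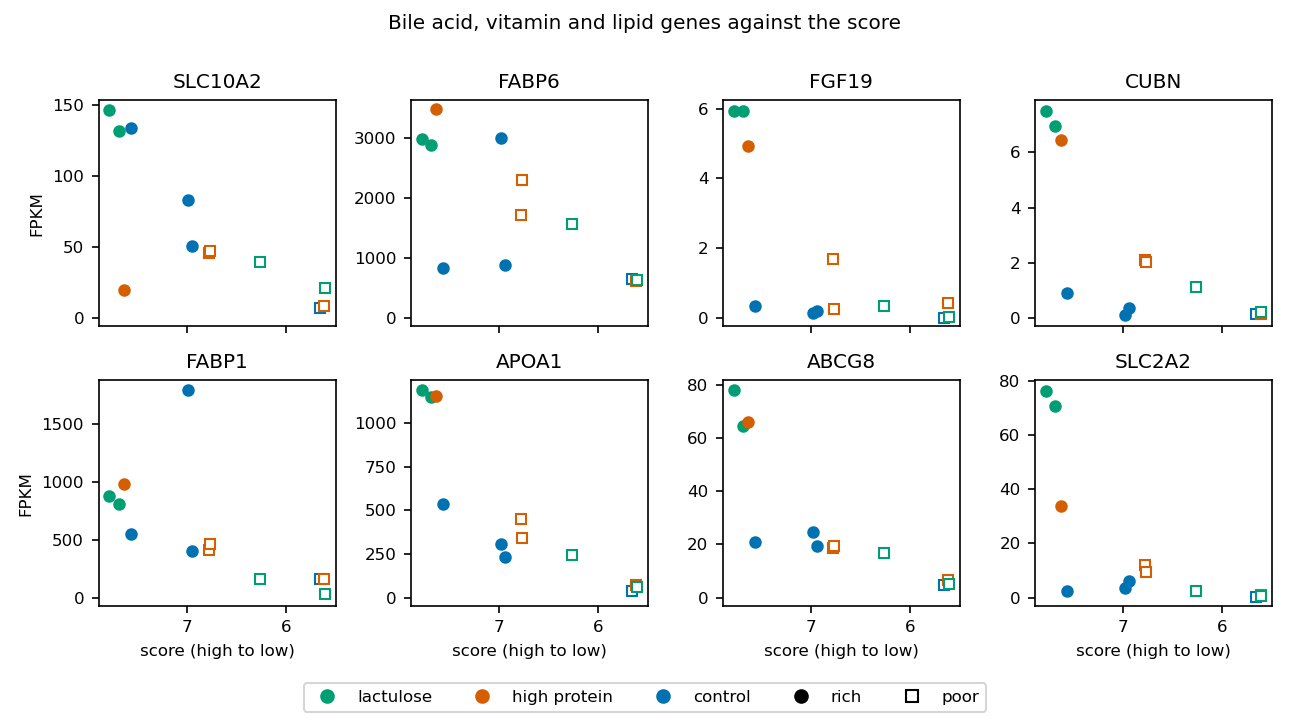
FPKM of 8 bile acid, vitamin, lipid and sugar genes against the score, drawn from high (left) to low (right), 1 point a library, filled for rich and open for poor and coloured by diet. FGF19, CUBN and SLC2A2 are high in lactulose 5, lactulose 3 and high protein 1 and low in the rich control libraries. ABCG8 is highest in the same 3 libraries, and has 19.3 to 24.6 FPKM in the rich control and 4.68 to 19.5 FPKM in the poor libraries. SLC10A2 is low in high protein 1 (19.6 FPKM).

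Transcription factors of the enterocyte had a median difference of 0.42 over 22 members, of which 21 were positive and 2 did not overlap. These were the nuclear receptors NR1I3, known as CAR, with 34.2 to 48.8 FPKM in the rich and 11.99 to 31.8 FPKM in the poor libraries, and PPARA, which turns on fatty acid oxidation, with 19.7 to 32.7 FPKM in the rich and 12.4 to 19.5 FPKM in the poor libraries. On the TMM scale PPARA overlapped, and its gene model lies near a scaffold end. HNF4A, a master regulator of enterocyte genes, averaged 43.6 ± 13.8 FPKM in the rich and 22.05 ± 6.27 FPKM in the poor libraries (SD, n = 6 each; difference 0.94). Its relative HNF4G differed by 0.34 and the intestinal homeobox gene CDX2 by 0.35, both with overlap. KLF4, a factor of post-mitotic villus and goblet cells, had 3.84 to 10.4 FPKM in the rich and 2.63 to 5.82 FPKM in the poor libraries (difference 0.72). Epithelial adhesion genes and keratins were higher by a median of 0.34 over 24 members, 22 of them positive. EPCAM, a pan-epithelial adhesion molecule, averaged 509 ± 72.9 FPKM in the rich and 368 ± 70.3 FPKM in the poor libraries (SD, n = 6 each; difference 0.48). CGN, the tight junction protein cingulin, did not overlap in FPKM, at 19.5 to 31.97 FPKM in the rich and 11.5 to 17.6 FPKM in the poor libraries, and overlapped on the TMM scale. KRT20, a keratin of differentiated villus cells, differed by 0.72.

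Detoxification genes had a median of 0.20 over 10 members (0.12 without high protein 1), with EPHX1, an epoxide hydrolase, as the 1 without overlap, which was lower (8.24 to 13.1 FPKM in the rich and 14.3 to 22.1 FPKM in the poor libraries) and overlapped on the TMM scale. Urate and purine genes had a median of -0.21 over 17 members, 10 of them negative. XDH, xanthine dehydrogenase, which makes urate, averaged 19.4 ± 5.40 FPKM in the rich and 10.4 ± 2.19 FPKM in the poor libraries (SD, n = 6 each; difference 0.81). The urate exporter ABCG2 averaged 33.7 ± 14.1 FPKM in the rich and 15.97 ± 7.74 FPKM in the poor libraries (SD, n = 6 each; difference 1.07), and GDA, guanine deaminase, had 24.9 to 52.9 FPKM in the rich and 11.4 to 25.3 FPKM in the poor libraries. On the TMM scale XDH and GDA did not overlap, nor did PRPS1, which makes the precursor of purine synthesis and was lower, at 15.1 to 24.9 FPKM in the rich and 23.9 to 30.5 FPKM in the poor libraries. The purine synthesis genes ATIC and PAICS had differences of -0.56 and -0.45.

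Goblet, enteroendocrine, tuft and cell cycle lists had medians near that of all genes, and the crypt list lay below it. Goblet cell genes had a median of -0.03 over 12 members, 6 positive and 6 negative, and the mucin MUC2 averaged 3.47 ± 2.44 FPKM in the rich and 2.37 ± 0.739 FPKM in the poor libraries (SD, n = 6 each). Enteroendocrine genes had a median of -0.06 over 15 members, and chromogranin A, CHGA, averaged 171 ± 67.9 FPKM in the rich and 197 ± 69.8 FPKM in the poor libraries (SD, n = 6 each). Somatostatin, SST, a hormone of D cells, had 6.23 to 12.2 FPKM in the rich and 4.47 to 8.64 FPKM in the poor libraries (difference 0.51). The goblet protein disulfide isomerase AGR2 was at 489 to 657 FPKM in the rich and 447 to 683 FPKM in the poor libraries. Tuft cell genes had a median of -0.08 over 8 members. HPGDS, a prostaglandin synthase of that list, had a difference of 1.30, while TRPM5, the cation channel of tuft cells, differed by 0.08. The other members past the filter had negative differences in FPKM, the widest that of PTGS1 at -0.78. Crypt stem cell and Wnt genes had a median of -0.25 with 19 of 21 negative, and -0.34 to -0.19 when 1 library was left out. The stem cell marker OLFM4 averaged 80.8 ± 20.7 FPKM in the rich and 91.6 ± 37.9 FPKM in the poor libraries (SD, n = 6 each), the stem cell receptor LGR5 was at 0.449 to 0.996 FPKM in the rich and 0.611 to 1.75 FPKM in the poor libraries, the Wnt target AXIN2 differed by -0.38 and SMOC2 by -0.73. Cell cycle genes had a median of -0.08 over 57 members, with MKI67 at 10.5 ± 2.95 FPKM in the rich and 11.4 ± 4.27 FPKM in the poor libraries (SD, n = 6 each). Of the 57, 1 did not overlap, near the 1.28% of all genes that were lower without overlap. It was the replication factor RFC3 (14.5 to 23.3 FPKM in the rich and 23.4 to 29.2 FPKM in the poor libraries), which overlapped on the TMM scale. After TMM scaling, where the median of all genes was 0.01, the goblet, enteroendocrine, tuft and cell cycle medians were 0.10, 0.06, 0.03 and 0.04, and the crypt median was -0.17. Without control 3 the goblet and enteroendocrine medians were 0.06 and 0.04, and the cell cycle median was 0.01 without control 6. Antimicrobial genes had a median of 0.19 over 7 members, 4 positive and 3 negative, which was -0.0036 without control 7: LEAP2, an antimicrobial peptide of enterocytes, differed by 1.51 and lysozyme, LYZ, by -0.93. NOS2, the inducible nitric oxide synthase, was at 119 FPKM in control 7 and at most 9.81 FPKM elsewhere.

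Smooth muscle genes were the list furthest below the others. All 28 members past the filter had a negative difference, with a median of -0.81 (-0.69 after TMM scaling, -0.67 without control 3), and 6 did not overlap. On the TMM scale 27 of 28 were negative. Summed over the list, levels were 4223 to 5296 FPKM in the rich and 5593 to 11914 FPKM in the poor libraries. MYLK, the kinase that starts smooth muscle contraction, had 61.6 to 108 FPKM (median 97.4) in the rich libraries, against 117 to 244 FPKM (median 181) in the poor libraries (difference -0.94). DES, the intermediate filament desmin, had 474 to 676 FPKM (median 621) in the rich libraries, against 805 to 1609.9 FPKM (median 1198) in the poor libraries (difference -0.91). It lies at positions 2195123 to 2200788 on the minus strand of scaffold NW_025927723.1 (gene ID 125183766). MYL9, the regulatory myosin light chain, averaged 589.9 ± 78.2 FPKM in the rich and 1128 ± 305 FPKM in the poor libraries (SD, n = 6 each). KCNMB1, the smooth muscle subunit of the large-conductance potassium channel, averaged 46.8 ± 5.56 FPKM in the rich and 85.6 ± 11.7 FPKM in the poor libraries (SD, n = 6 each). The tropomyosin TPM1 and the phosphoglucomutase relative PGM5 were the other 2 without overlap, TPM1 at 234 to 283 FPKM in the rich and 286 to 564 FPKM in the poor libraries. PGM5 had 54.7 to 84.1 FPKM in the rich and 85.4 to 171 FPKM in the poor libraries, and TPM1 overlapped on the TMM scale. The smooth muscle myosin MYH11 had 104.9 to 322 FPKM (median 238) in the rich libraries, against 268 to 616 FPKM (median 456) in the poor libraries (difference -1.002), and here high protein 4 lay among the rich libraries. High protein 4 was the lowest poor library in 5 of the 6, with 805 FPKM of DES, and control 3 was the lowest of the 12 in MYLK, DES and MYL9.

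**Figure D4:**
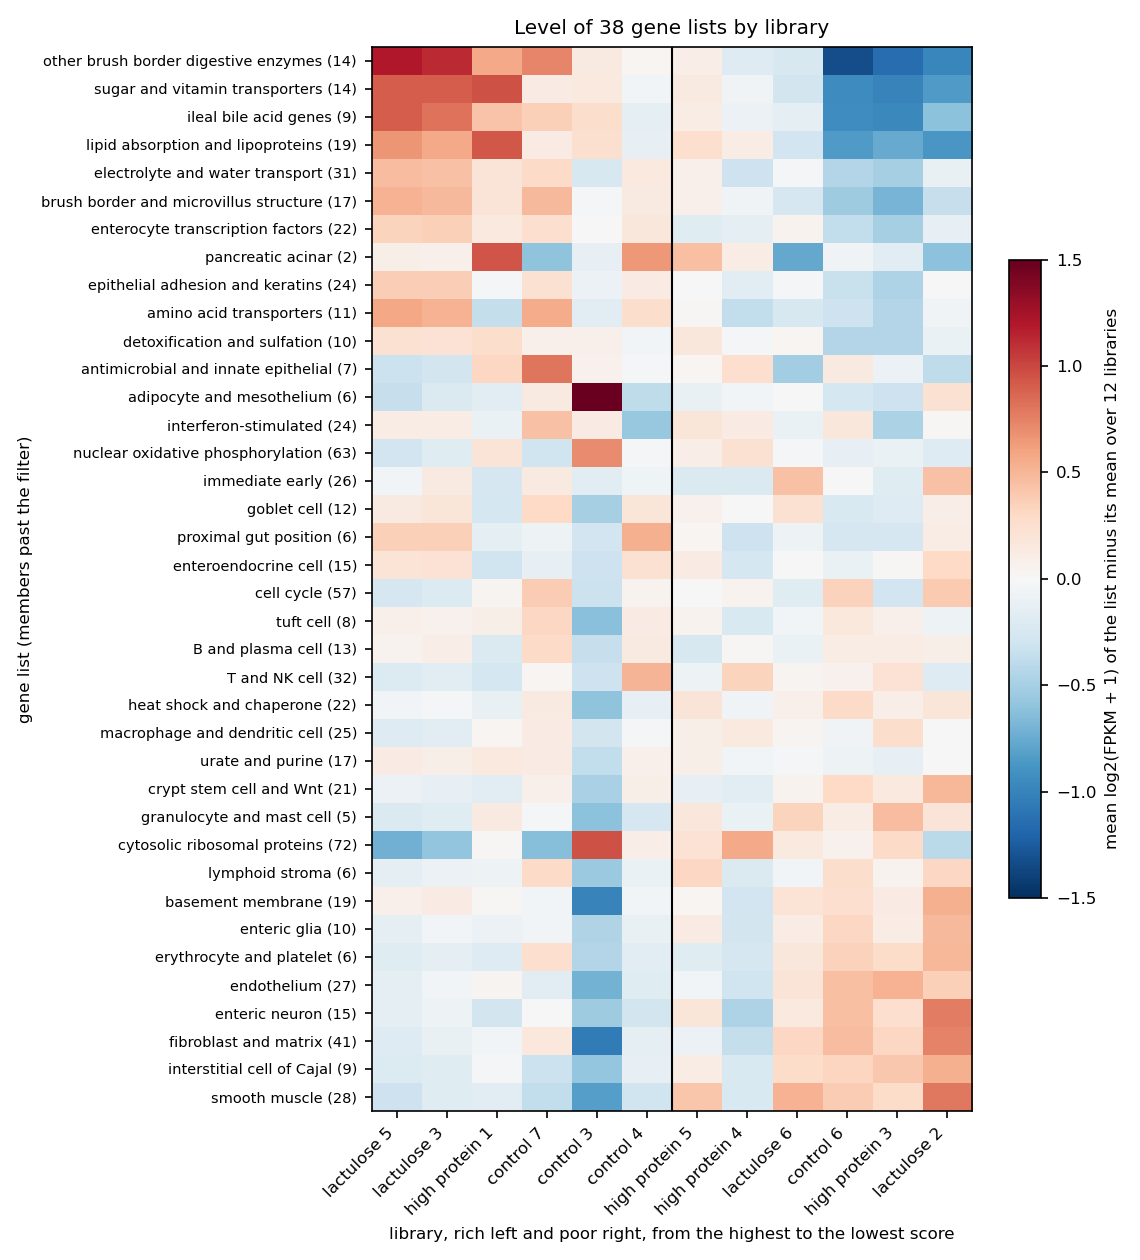
Mean log2(FPKM + 1) of the members of 38 gene lists in each library, minus the list's mean over the 12 libraries, from the highest score (left) to the lowest (right), with the number of members in brackets. The colour scale ends at 1.5, and the adipocyte list in control 3 reaches it. Brush border enzymes, transporters and lipid genes go from red to blue across the libraries, smooth muscle, fibroblast and neuron lists from blue to red, and control 3 is low in stromal lists and high in ribosomal proteins.

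Genes of the pacemaker, nerve and glial cells that lie in the muscle wall were also lower. Interstitial cell of Cajal genes, the pacemakers, had a median of -0.55 with 8 of 9 negative; KIT, their receptor kinase, differed by -0.63 and HAND1 by -0.73. Enteric neuron genes were negative in all 15 members past the filter, with a median of -0.42. STMN2, a tubulin-binding protein of growing axons, was the 1 that did not overlap, with 29.4 to 32.5 FPKM (median 30.1) in the rich libraries, against 40.1 to 60.99 FPKM (median 47.99) in the poor libraries. It averaged 30.5 ± 1.24 FPKM in the rich and 49.2 ± 8.76 FPKM in the poor libraries (SD, n = 6 each). VIP, the relaxing neuropeptide, had 7.11 to 15.2 FPKM in the rich and 7.36 to 26.1 FPKM in the poor libraries, and TAC1, the substance P precursor, 14.5 to 23.9 FPKM in the rich and 9.28 to 60.4 FPKM in the poor libraries. Enteric glia genes had a median of -0.38 with 8 of 10 negative. GPM6B, a membrane glycoprotein of glia and neurons, had 1.34 to 4.48 FPKM in the rich and 3.38 to 7.42 FPKM in the poor libraries. In VIP and TAC1 the poor library high protein 4 had 7.36 and 9.28 FPKM, under the other 5 poor libraries.

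CCKAR and SCTR, both receptors for gut peptides, had the widest differences among genes with a symbol that were lower without overlap. CCKAR, the cholecystokinin receptor that in mammals sits on muscle, nerve and gallbladder, had 2.46 to 5.502 FPKM (median 3.998) in the rich libraries, against 5.53 to 13.97 FPKM (median 10.6) in the poor libraries (difference -1.11). SCTR, the secretin receptor, had 0.776 to 1.48 FPKM (median 1.02) in the rich libraries, against 1.75 to 4.62 FPKM (median 3.05) in the poor libraries (difference -0.98). The lowest poor library of both was high protein 4, at 5.53 FPKM of CCKAR and 1.75 FPKM of SCTR. CPT1B, the muscle form of the enzyme that admits fatty acids to mitochondria, averaged 6.27 ± 1.09 FPKM in the rich and 13.5 ± 3.84 FPKM in the poor libraries (SD, n = 6 each; difference -0.96). It shares scaffold NW_025927950.1 with TYMP, thymidine phosphorylase, which had the opposite direction, at 21.4 to 35.97 FPKM in the rich and 2.64 to 20.4 FPKM in the poor libraries. The growth factor PTN, the matrix protein THBS4 and the nerve ending protein BASP1 had differences of -0.90, -0.89 and -0.83, and BASP1 had 20.3 to 25.7 FPKM in the rich and 34.4 to 50.4 FPKM in the poor libraries. On the TMM scale PTN overlapped. PHETA2, an endosome adaptor, differed by -0.96 and its paralog PHETA1 by 1.01; how reads shared by paralogs were counted is not given in the sources used here.

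Stroma and vessels were lower by smaller amounts. Fibroblast and matrix genes had a median of -0.44 with 40 of 41 negative, basement membrane genes -0.36 with 15 of 19 negative, and endothelial genes -0.40 with 27 of 27 negative. In these 3 lists 0 genes were without overlap, where 0.901% of all genes were higher and 1.28% lower in this way. The 0 is not read as a result. The fibrillar collagen COL1A1 averaged 64.5 ± 35.1 FPKM in the rich and 78.1 ± 32.4 FPKM in the poor libraries (SD, n = 6 each). COL3A1 averaged 210.1 ± 88.6 FPKM in the rich and 248 ± 80.1 FPKM in the poor libraries (SD, n = 6 each). Control 7, a rich library, had 375 FPKM of COL3A1, the highest of the 12, and control 3 the lowest, 105.0 FPKM. The endothelial adhesion molecule PECAM1 differed by -0.48, and the lymphatic receptor LYVE1 by -0.69. FOXF2, a transcription factor of gut fibroblasts, had 8.27 to 24.2 FPKM (median 17.2) in the rich libraries, against 19.3 to 38.3 FPKM (median 33.4) in the poor libraries (difference -0.84). LAMB3, a laminin chain made by epithelium, had the opposite direction, with a difference of 0.69. Lymphoid stroma genes had a median of -0.32 over 6 members (-0.18 without control 3). The complement receptor CR1 had the opposite direction, with a difference of 0.39, and the chemokine CCL19 had 25.5 to 37.7 FPKM in the rich and 20.2 to 124 FPKM in the poor libraries, highest in high protein 5. Without control 3 the medians were -0.30 for fibroblast, -0.23 for basement membrane and -0.30 for endothelial genes, closer to the all-gene median of -0.06 in that setting.

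In the 4 lists of immune cells 0 genes were without overlap, where 0.901% of all genes were higher and 1.28% lower in this way. The 0 is not read as a result. The list medians lay from -0.10 to -0.29. Leaving out 1 library moved these medians: T and NK cell genes to -0.28 without control 4 and -0.10 without high protein 4, macrophage genes to -0.11 without control 3, granulocyte genes to -0.43 without control 7, and B cell genes to -0.19 without high protein 5, -0.15 without control 4 and 0.01 without control 3. T and NK cell genes had a median of -0.16 over 32 members, and the T cell receptor subunit CD3E averaged 73.2 ± 25.1 FPKM in the rich and 75.1 ± 19.9 FPKM in the poor libraries (SD, n = 6 each). B and plasma cell genes had a median of -0.10 over 13 members (0.02 after TMM scaling), and macrophage and dendritic cell genes -0.21 over 25, with the complement subunit C1QA at 68.7 ± 19.6 FPKM in the rich and 87.7 ± 17.9 FPKM in the poor libraries (SD, n = 6 each). MZB1, a plasma cell chaperone, had a difference opposite to that of its list, at 10.6 to 24.6 FPKM in the rich and 5.32 to 13.4 FPKM in the poor libraries. GZMM, a granzyme of cytotoxic cells, differed by -0.45, and LECT2, a secreted chemotactic protein, by -0.72. PTPRC, the pan-leukocyte marker CD45, differed by -0.08. Granulocyte and mast cell genes had a median of -0.29 over 5 members, of which KIT is also an interstitial cell gene. In the erythrocyte and platelet list, with a median of -0.40 over 6 members, the anion exchanger SLC4A1 did not overlap, at 0.487 to 0.905 FPKM in the rich and 0.971 to 1.89 FPKM in the poor libraries.

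Lists of pancreas and fat stand for tissue outside the gut wall. Of 24 pancreatic acinar genes 10 were in the table and 2 passed the filter, CEL and CLPS, with CEL at 4.62 to 15.3 FPKM in the rich and 3.70 to 15.2 FPKM in the poor libraries. CLPS was at 0.972 to 7.36 FPKM in the rich and 0.769 to 3.30 FPKM in the poor libraries. The adipocyte list had a median of 0.15 over 6 members, and -0.06 without control 3. In control 3 the lipid droplet gene PLIN1 was at 49.2 FPKM, against at most 2.57 elsewhere, and the lipase LPL at 15.6 FPKM, against at most 4.72. Adiponectin, ADIPOQ, had the opposite direction and did not overlap, at 20.1 to 38.7 FPKM (median 32.6) in the rich libraries, against 43.04 to 95.6 FPKM (median 52.6) in the poor libraries. Its lowest value was that of control 3, 20.1 FPKM, and its highest that of lactulose 2, 95.6 FPKM.

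Housekeeping and response lists were mixed. Cytosolic ribosomal protein genes were negative in 71 of 72 members, with a median of -0.31 (-0.51 without control 3, and -0.18 after TMM scaling, with 66 of 72 negative), and RPL29 ranged over 187 to 1606 FPKM in the rich and 338 to 1020.2 FPKM in the poor libraries, highest in control 3. RPL3 averaged 947 ± 335 FPKM in the rich and 1151 ± 196 FPKM in the poor libraries (SD, n = 6 each). Nuclear oxidative phosphorylation genes had a median of 0.03 over 63 members, which was 0.16 after TMM scaling and -0.14 without control 3. Of the 63, 1 did not overlap, near the 0.901% of all genes that were higher without overlap. It was the succinate dehydrogenase subunit SDHD, at 255 to 291 FPKM in the rich and 203 to 252 FPKM in the poor libraries. On the TMM scale SDHD overlapped and 2 other members did not. Immediate early genes had a median of -0.03 over 26 members (0.08 after TMM scaling), and the immediate early factor EGR1 was at 10.3 to 22.5 FPKM in the rich and 15.6 to 87.9 FPKM in the poor libraries and highest in lactulose 6. FOS, another immediate early transcription factor, was at 5.57 to 9.41 FPKM in the rich and 3.64 to 38.5 FPKM in the poor libraries and also highest in lactulose 6. Interferon-stimulated genes had a median of 0.07 over 24 (-0.02 without high protein 3), with the antiviral RSAD2 at -0.72, and heat shock genes -0.19 over 22 (-0.11 without control 3), with HSPA2, a chaperone, at -0.85.

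**Figure D5:**
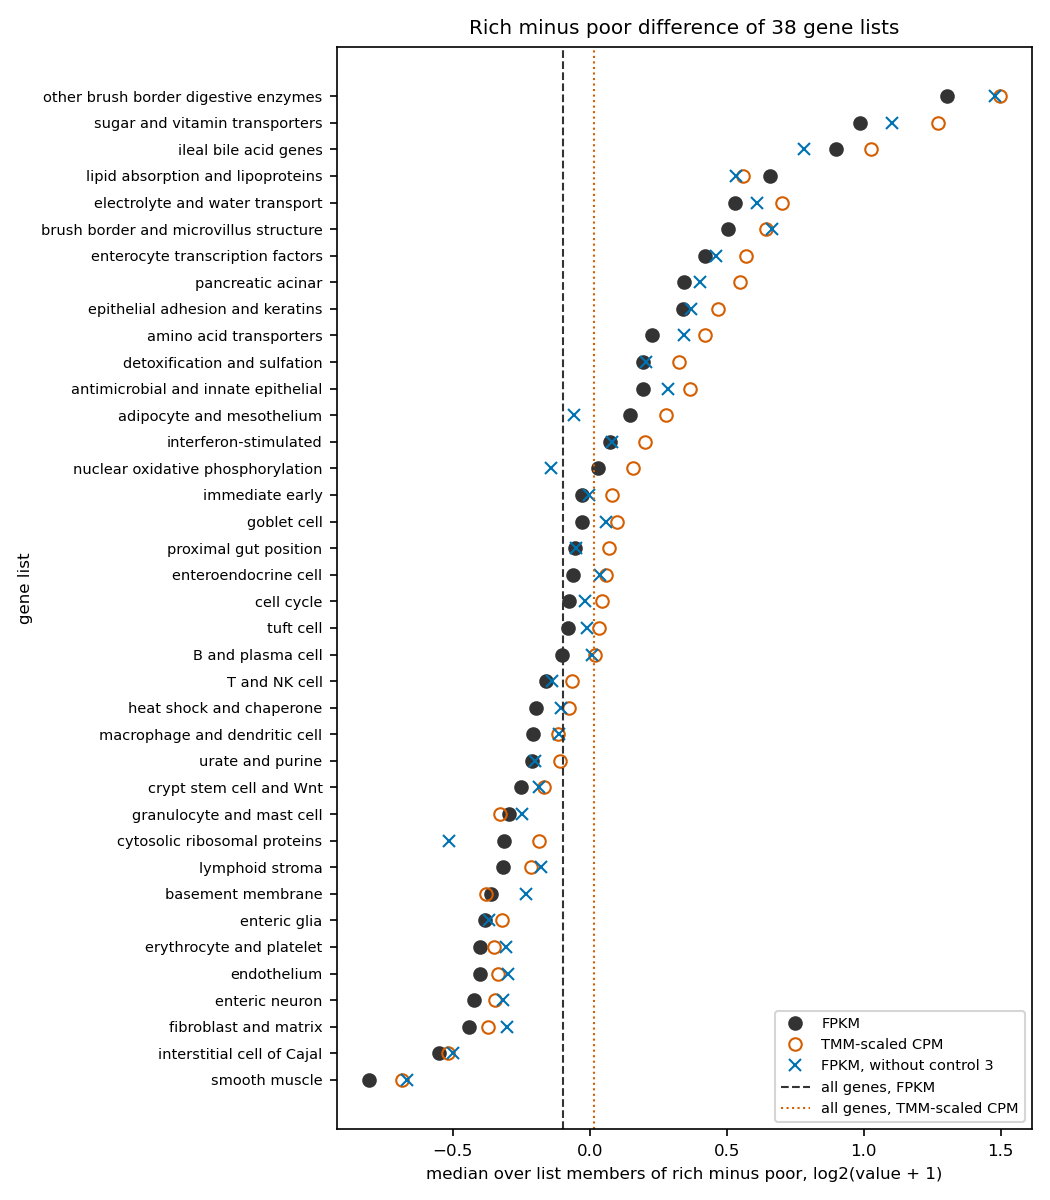
Median over list members of the rich minus poor difference in mean log2(value + 1), for 38 gene lists, on FPKM (filled circles), TMM-scaled counts (open circles) and FPKM without control 3 (crosses). Vertical lines mark the medians of all genes, -0.10 and 0.01. Brush border enzymes are furthest right at 1.30 and smooth muscle furthest left at -0.81 in FPKM, and the oxidative phosphorylation and adipocyte lists lie below 0 without control 3.

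Taken inside each diet, the direction in FPKM was the same in all 3 diets for 5639 of the 11986 genes, 1556 higher and 4083 lower. On this scale the median difference over all genes was itself below 0, at -0.10, against 0.01 after TMM scaling. The excess of lower genes is therefore not read as a result. Some genes share a direction in 3 diets by chance, and that share was not worked out. Control had 1 poor library, control 6, and high protein 1 rich library, high protein 1, so that each of these contrasts rests on a single library on one side. The rich side of the lactulose contrast was lactulose 5 and 3, the pair that may come from 1 bird. Brush border enzymes had medians of 1.96 in lactulose, 0.96 in high protein and 1.63 in control libraries, and 13 of 14 members were higher in all 3. Sugar and vitamin genes had 1.37, 0.93 and 1.02 in that order of diets. For smooth muscle the medians were -0.89 in lactulose, -0.27 in high protein and -0.95 in control libraries, and 27 of 28 members were lower in all 3. The fibroblast median was -0.68 in lactulose, -0.01 in high protein and -0.84 in control libraries, and the endothelial one -0.35, -0.02 and -0.86. Within high protein SLC10A2 had a difference of -0.42, against 2.23 in lactulose and 3.41 in control libraries.

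The diets themselves, which the split did not use, were compared with the score as a term of the fit, to see which genes differ between diets at equal score. edgeR's quasi-likelihood test with Benjamini-Hochberg adjustment over 16075 genes called 0 genes (0.0%) at 0.05 for lactulose against high protein, 0 (0.0%) for high protein against control and 0 (0.0%) for lactulose against control. Unadjusted p-values under 0.05 numbered 1259, 782 and 1481 in that order, against 908, 510 and 997 without the score term, where edgeR also called 0. By chance a share of 0.05 of the 16075 genes is expected there. Both counts of high protein against control, 782 and 510, lie below that share. The unadjusted counts are therefore not read as numbers of diet genes. DESeq2 with the same terms called 51, 35 and 103 of the 16075 genes. It gave no adjusted p for 3117 genes in lactulose against high protein and for 1870 in lactulose against control. HAAO, an enzyme of tryptophan breakdown, had 2.86, 2.34, 2.03 and 2.53 FPKM in lactulose libraries, against 4.16, 6.67, 4.56 and 4.69 FPKM in high protein ones. The diets did not overlap in HAAO, with a log2 fold change of -1.10 ± 0.17 (SE; edgeR adjusted p = 0.235, 0.572 without the score, and 3.73e-08 with DESeq2 to 0.934 over the alternatives). ISX, a homeobox gene that in mice limits vitamin A uptake, had 9.15, 9.97, 9.65 and 8.65 FPKM in high protein libraries, against 32.1, 25.6, 16.1 and 33.4 FPKM in control ones. The diets did not overlap in ISX, but the difference did not pass: its log2 fold change was -1.56 ± 0.26 (SE), with an edgeR adjusted p of 0.637, of 0.341 without the score, and of 2.07e-05 (DESeq2) to 1 over the alternatives.

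LOC125183064 had the smallest adjusted p in both comparisons with control. It was listed at 0 in the 4 control libraries and at 7.90 to 28.2 FPKM in lactulose and 7.41 to 37.6 FPKM in high protein libraries (edgeR adjusted p = 0.077 for high protein against control and 0.109 for lactulose against control, and 8.33e-15 with DESeq2 to 1 over the alternatives of the first of these). The RefSeq name table calls it RPS29, a name that another gene of the deposited table carries, so that reads may be shared between them. LOC106043396 had 1.94 to 8.46 FPKM in lactulose and 9.06 to 19.9 FPKM in high protein libraries, a log2 fold change of -1.86 ± 0.26 (SE; edgeR adjusted p = 0.235). For lactulose against control, RBPMS2, an RNA-binding protein of visceral smooth muscle, had a log2 fold change of 0.63 ± 0.11 (SE; edgeR adjusted p = 0.396, 0.771 without the score, and 0.00137 with DESeq2 to 0.880 over the alternatives).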

How the data were processed

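The 12 libraries were oligo(dT)-selected mRNA made with a dUTP strand-marking kit and sequenced as read pairs of 150 bases, per the labels' protocols. The authors deposited raw read counts and FPKM values for 19836 genes on 860 scaffolds, per the file headers. The submitters' processing notes name, with no role or order, HISAT2 2.2.1 and cutadapt 1.9, further edgeR, DESeq2 and StringTie 2.1.6. The sources used here do not give the genome build, the annotation or the handling of strand and of reads shared by gene copies, so that overlapping, antisense and paralogous genes are uncertain. In the counts the value 4 occurs 5063 times, against 1799 times for 3 and 1526 times for 5, so that a count may not be 1 independent read, and replicate spread rather than counting error is used below. Names came from the deposited table; its gene IDs were matched to a RefSeq gene table of another assembly, used for names alone (17685 matched, 2151 did not), and 687 genes took their name from it. ANPEP and MTTP carry LOC names in the deposited table and were found by gene ID. Positions are those of the deposited table. No sequence was used here.

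Genes with a mean of at least 1 FPKM over all libraries were described on log2(FPKM + 1), which understates differences of low genes, and again on TMM-scaled CPM, computed here (edgeR 4.0.16 in R 4.3.3). No overlap means that all 6 libraries of one side lay beyond all 6 of the other. Named genes were the 12 widest non-overlapping differences in each direction among genes with a symbol, up to 2 non-overlapping members of each list or else its widest difference, a set of fixed genes, the score genes and the gene of smallest p in each diet comparison. Chosen after their values were seen were ABCG5, ABCG8, ADA, AGR2, AMN, AQP8, ATIC, ATP1B1, ATP1B3, AXIN2, CD36, CDHR2, CDHR5, CR1, CUBN, DPP4, EZR, FGF19, GATA4, KIT, LCT, LOC125181535, LPL, LYZ, MOGAT2, MYO1A, NOS2, NPC1L1, ONECUT2, PAICS, PGM5, PHETA1, PLIN1, PRPS1, PTGS1, RBP2, SCT, SLC2A2, SLC51B, SLC7A9, TAC1, TMPRSS15, TPM1, TRPM5 and VIP. Some genes that the rule names are not reported here. The members and all gene lists were chosen with earlier results of these data known, so that no list gives independent support. Roles of list names are textbook ones, and genes may stand in several lists.

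Diets were compared on the raw counts with edgeR's quasi-likelihood test (filterByExpr with a minimum count of 10, TMM, all 12 libraries, the score as a covariate, Benjamini-Hochberg adjustment over 16075 genes, threshold 0.05), and the p of the score term is not reported. DESeq2 1.42.0, limma 3.58.1 on log2(FPKM + 1) and log2(FPKM + 0.1), another scaling, no filter, rich or poor in place of the score, a replicate block and leaving out each library were tried as alternatives. Replicates are libraries of 1 diet, and p-values measure the spread between these libraries, which may be technical. Scripts were tested on simulated counts. Descriptions used pandas 2.3.3 and numpy 2.4.6, and figures matplotlib 3.10.9.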

Additional observations from a re-analysis of the deposited data

Results flagged for a closer look

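In 206 checks of a gene within one side (103 named genes, the 5 score genes among them, on 2 sides), 10 had 1 library far from the other 5. Chance gives such a gap in about 1 of 20 checks. Many of these genes were named because their sides did not overlap, so that this rate need not hold for them. No excess over chance is read from the 10. Control 3 was the far library in 6 of them, each time on the low end of the rich side: PHETA2 (6.56 FPKM), MYLK (61.6 FPKM), the glial membrane protein GPM6B (1.34 FPKM), the smooth muscle actin and myosin genes ACTA2 (81.0 FPKM) and MYH11 (105 FPKM), and the endothelial gene PECAM1 (9.98 FPKM). Lactulose 2 was far from the other poor libraries in SLC22A4, low at 6.23 FPKM, and in the crypt gene SMOC2, high at 7.89 FPKM. RFC3 was high in high protein 4 at 29.2 FPKM, and CD3E was high in control 4 at 123 FPKM.

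In 8 comparisons between diets, found among the 103 named genes, a gene had all libraries of one side above the other in one diet and the opposite in another. With so few libraries on a side such separation arises easily by chance, and no excess over chance is read from the 8. The difference between the diets was not tested, and the control and high protein contrasts each rest on 1 library on a side. The rich side of lactulose was lactulose 5 and 3, which may come from 1 bird. MUC2 had a rich minus poor difference of 0.74 in lactulose and -0.74 in high protein libraries, and PTPRC 0.15 and -0.32 in that order. COL1A1 had -0.74 in lactulose and 0.39 in high protein libraries. OLFM4 had 0.86 in lactulose and -0.62 in control libraries. MKI67 had 0.61 in high protein and -0.75 in control libraries. ISX had -0.45 in lactulose and 0.87 in control libraries, and SCARB1, a lipid and carotenoid receptor, 1.24 in lactulose, 1.87 in high protein and -0.64 in control libraries.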

How the results depend on the processing

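Each of the 8 other ways to compute the score put the same 6 libraries on each side. The number of genes without overlap moved more: on TMM-scaled counts 226 were higher, and with the 4 highest against the 4 lowest libraries 920 were higher and 2316 lower. That setting has fewer libraries, which overlap less, and it also leaves out the 4 libraries nearest the border. These changes cannot be told apart in the counts. With control 3 left out and lactulose 3 and 5 averaged, a setting chosen after seeing the data, 376 were higher and 311 lower. Leaving out 1 library at a time gave 109 to 361 higher genes (361 without control 3, 205 without control 4, 199 without high protein 5) and 161 to 684 lower ones (289 without control 3, 322 without control 4, 684 without high protein 4). Over all settings tried, the number of lists above the all-gene median, 21 of 38, was 18 to 22, and 19 to 21 when 1 library was left out. Genes with 1 direction in all 3 diets, 5639, numbered 4051 to 7501 over all settings, and 4524 to 6141 when 1 library was left out. Those genes could not be counted without control 6 or high protein 1. Of the named genes and lists without overlap, none changed sign in these settings. The medians of 13 lists did in at least 1 setting, 10 of them when 1 library was left out: goblet, enteroendocrine, cell cycle, antimicrobial, B cell, adipocyte, oxidative phosphorylation, immediate early, interferon-stimulated and upper small intestine genes, and in other settings tuft, erythrocyte and pancreatic genes.

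For high protein against control the diet call count was 0 with edgeR and 35 with DESeq2, 2 with rich or poor in place of the score (ASAH2 and LOC125183064), 1 with no filter on low counts, 1 with limma on log2(FPKM + 1) and 1 with limma on log2(FPKM + 0.1). For lactulose against high protein DESeq2 called 51, and for lactulose against control 103, with 1 by limma on log2(FPKM + 1) and 1 on log2(FPKM + 0.1). Leaving out 1 library gave 0 to 5 calls for high protein against control, 0 to 1 for lactulose against high protein and 0 to 1 for lactulose against control. The 5 came without control 6 (ADRA2A, CUBN, ISX, LOC125183064 and SCARB1); LOC125183064 was called without high protein 5, CEL without control 7, LOC106043396 without lactulose 6 and ISX without control 6. Adjusted p of LOC125183064 ranged from 8.33e-15 to 1 over the settings. The cause was not tested.

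With a replicate block edgeR called 0, 0 and 0 genes in the 3 comparisons, on 2 residual degrees of freedom. Deviations from the diet means correlated by -0.13 to 0.20 between libraries with the same number. Between libraries of another number and another diet the range was -0.40 to 0.47. The score was not removed from these deviations, so that they cannot decide whether the numbers pair the libraries.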

Other observations

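Genes outside the lists, picked after their values were seen, give further metabolism on the higher side. PEPD, which splits dipeptides ending in proline, had 191 FPKM on average in the rich and 106 FPKM in the poor libraries (difference 0.84). The copper importer SLC31A1 had 62.6 FPKM on average in the rich and 29.7 FPKM in the poor libraries (difference 1.07), and LDHA, lactate dehydrogenase A, 805 FPKM on average in the rich and 457 FPKM in the poor libraries (difference 0.84). SULT1C4, a sulfotransferase, had 224 FPKM on average in the rich and 101.4 FPKM in the poor libraries, and the serotonin transporter SLC6A4 5.09 FPKM on average in the rich and 2.36 FPKM in the poor libraries. These 5 did not overlap between the sides in FPKM; on the TMM scale PEPD overlapped. SLC5A12, a sodium-coupled lactate carrier, and PLB1, a brush border phospholipase, had wider differences, 2.22 and 2.01, with overlap. On the lower side, VIPR2, a receptor of the neuropeptide VIP, had 2.25 FPKM on average in the rich and 4.31 FPKM in the poor libraries (difference -0.71) and did not overlap.

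A group of genes, also picked after their values were seen, split the rich libraries by diet. SCARB1, which takes up lipids and carotenoids, had 35.1 and 35.6 FPKM in the rich lactulose libraries, 74.5 FPKM in high protein 1 and 5.23, 2.61 and 5.26 FPKM in the rich control libraries. ISX, which in mouse intestine represses SCARB1, had the opposite order, at 10.6 and 9.34, 9.15, and 33.4, 32.1 and 25.6 FPKM in the same libraries. APOA1 showed the pattern of SCARB1 with a smaller gap, 1186 and 1148 FPKM in the lactulose libraries and 1153 FPKM in high protein 1, and 538, 305 and 231 FPKM in the control libraries. Whether the diet has a part in this was not tested within the rich libraries.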
